A study of Mus musculus with 8 samples.

Results

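The 8 genes described here encode the renin-angiotensin system as it is built in the kidney: the substrate angiotensinogen (Agt), the protease renin (Ren1), the angiotensin-converting enzyme (Ace), the surface peptidases aminopeptidase A (Enpep) and neprilysin (Mme), the receptors Agtr1a and Mas1, and the prorenin receptor (Atp6ap2). They were chosen by gene symbol. Each gene was read from its brightest probe among those marked well above background in at least 4 of the 8 channels of the 4 arrays, and all 8 genes had such a probe. They are 8 of the 14284 named genes, and of the 22122 items in all, that passed this filter and were tested together.

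Kidneys came from 4 wild-type mice (Wild Type PUS1) and 4 mice homozygous for a mutation of Pus1 (Homozygous Mutant PUS1), which encodes a nuclear and mitochondrial synthase that isomerises uridines of RNA. All 8 mice were 14 to 16 weeks old, untreated, and of the C57BL/6J strain, to which the line had been backcrossed for 5 generations. Each group held 2 females (numbers 1 and 2) and 2 males (numbers 3 and 4), and total RNA from a frozen cross section of the whole kidney was labelled from 200 ng per mouse. On each array a mutant and a wild-type mouse of like number and sex were hybridised as a pair. The mutant carried Cy5 in pairs 1 and 3, and the dyes were exchanged in pairs 2 and 4. The strain in which the mutation was made, and the part of Pus1 that it removes, are not given in the sources used here.

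Angiotensinogen is cut by renin to angiotensin I, which the converting enzyme trims to angiotensin II, and angiotensin II acts through the receptor encoded by Agtr1a to constrict vessels and retain salt. Renin is made in the kidney by the juxtaglomerular cells of the afferent arteriole, whereas Agt, Enpep and Mme are known from the proximal tubule, whose brush border carries both peptidases. The receptor Mas1 binds a shorter angiotensin peptide whose actions oppose those of angiotensin II.

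The starts of 4 of these genes are shown because they are the substrate and the enzymes that make or cut the active peptide, and because the same short motif was found close to the start of each. These are the 250 bases before the annotated start in RefSeq (build GRCm38.p6), which lists a window for 7 of the 8 genes and none for Agtr1a. Capitals mark the letters TATAAA, the core of a TATA box, on either strand, so that TTTATA is the same motif read from the other strand.
Ren1 (chr1:133350424-133350673, plus strand): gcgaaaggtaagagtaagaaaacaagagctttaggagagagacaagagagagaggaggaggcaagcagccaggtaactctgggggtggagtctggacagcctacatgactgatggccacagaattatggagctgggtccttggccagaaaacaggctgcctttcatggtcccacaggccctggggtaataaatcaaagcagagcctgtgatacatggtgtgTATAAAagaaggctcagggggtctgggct
Agt (chr8:124569707-124569956, minus strand): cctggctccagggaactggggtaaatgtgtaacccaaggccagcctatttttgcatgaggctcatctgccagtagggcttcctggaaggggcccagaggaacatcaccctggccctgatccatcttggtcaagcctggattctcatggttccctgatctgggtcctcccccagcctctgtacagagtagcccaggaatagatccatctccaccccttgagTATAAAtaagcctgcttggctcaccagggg
Ace (chr11:105967698-105967947, plus strand): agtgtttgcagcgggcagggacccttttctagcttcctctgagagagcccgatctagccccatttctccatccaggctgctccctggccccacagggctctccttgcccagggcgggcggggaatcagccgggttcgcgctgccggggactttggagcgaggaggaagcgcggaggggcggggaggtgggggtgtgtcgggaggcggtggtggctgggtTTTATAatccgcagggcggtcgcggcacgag
Enpep (chr3:129332750-129332999, minus strand): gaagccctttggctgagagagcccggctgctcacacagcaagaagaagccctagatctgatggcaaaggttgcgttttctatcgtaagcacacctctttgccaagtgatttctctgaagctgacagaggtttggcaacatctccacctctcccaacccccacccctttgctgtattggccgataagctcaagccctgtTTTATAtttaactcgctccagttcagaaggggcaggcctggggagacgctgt
The motif began 29 bases before the start of Ren1, 30 bases before that of Agt, 31 bases before the outer start of Ace and 52 bases before that of Enpep. It was absent from the other 6 windows of the 7 genes, which are those of Atp6ap2 and Mas1, the inner start of Ace and 3 starts of Mme. Among all 32851 promoter windows of this length, 12.4% held it on at least 1 strand. The letters AGAACA, which form the half-site of androgen and glucocorticoid receptors, occurred only in the window of Atp6ap2 among the 10 windows and in 16.1% of all. TGACGTCA, the cyclic AMP response element, and GTTAAT, a half-site of HNF1, were found in none of the 10, against 1.55% and 6.43% of all windows. These are letter matches within a fixed window and no measure of binding.

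The arrays were read on 1 slide in 1 scan, and 26919 to 30529 of 55681 probes per channel were well above background. The median spot was 97 to 105 intensity units over a local background of 51 to 57 in the Cy3 channel, and 220 to 245.5 over 141 to 144 in the Cy5 channel. Sex cannot be told apart from position on the slide, where females took places 1 and 2 and males places 3 and 4. Pus1 was lower in every mutant than in every wild-type kidney, with a log2 difference of -2.96 ± 0.075 (SE), 7.77-fold lower (limma, adjusted p = 0.00041), although whether its probe lies in the altered part of the gene is not known here. With the processed signals the difference was -3.87 (adjusted p = 0.14) and with the deposited table -3.88 (adjusted p = 0.22), larger in size and not called. Listed markers of proximal tubule, podocytes, endothelium and collecting duct were all measured in the labelled tissue except 1 marker of the straight proximal tubule (Acy3), and 6 of 8 adrenal cortex markers were not kept. The mean log2 level of 9 fat markers ranged from 10.1 to 13.8 and that of 8 urothelium markers from 7.39 to 10.2 between kidneys, with no marker of either list called for sex.

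Whether loss of Pus1 altered the angiotensin system in the kidney was asked within the pairs. None of the 8 genes differed between mutant and wild-type kidneys at an adjusted p of 0.05 (limma on the 4 within-array log2 ratios with a term for dye, Benjamini-Hochberg over 22122 items), where 0.0271% of all items were called, 0.00904% higher in mutants and 0.0181% lower. None had an unadjusted p below 0.05 either, against 4.46% of all items. The 8 differences, mutant minus wild type, ran from -0.15 for Ren1 to 0.14 for Mas1 on the log2 scale with a median of 0.02, and the median of all items was -0.00. Adjusted p-values were 0.98 or above for each gene, and the 95% intervals reached at most 0.36 in either direction.

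The substrate and the protease came first. Agt read 10.60 and 10.45 (normalized log2 intensity throughout) in wild-type females 1 and 2 and 10.36 and 10.79 in mutant females 1 and 2, and it read 9.87 and 9.95 in wild-type males 3 and 4 and 9.73 and 10.03 in mutant males 3 and 4. The genotypes overlapped fully, and the difference was 0.01 ± 0.080 (SE, 95% interval -0.18 to 0.21). Ren1 read 8.98 and 8.22 in wild-type females against 8.24 and 8.42 in mutant females, and 7.89 and 7.29 in wild-type males against 7.51 and 7.62 in mutant males. Wild-type female 1 stood highest and wild-type male 4 lowest, so wild type spanned the whole range of the mutants, and the difference was -0.15 ± 0.088 (95% interval -0.36 to 0.07).

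The peptidases that make and cut angiotensin II gave the same picture. Ace read 11.35 and 10.84 in wild-type females against 10.68 and 11.50 in mutant females, and 11.07 and 10.31 in wild-type males against 10.54 and 10.55 in mutant males. Within each pair the higher Ace value was the Cy3 channel, and the genotype difference was -0.07 ± 0.093 (95% interval -0.30 to 0.16). Enpep, which turns angiotensin II into angiotensin III, read 10.08 and 10.09 in wild-type females, 10.28 and 9.79 in mutant females, 9.77 and 9.95 in wild-type males and 9.96 and 9.98 in mutant males. Its genotypes overlapped, with a difference of 0.03 ± 0.083. Mme, which degrades angiotensins, kinins and natriuretic peptides, read 9.94 and 10.09 in wild-type females, 10.05 and 10.25 in mutant females, 9.45 and 9.51 in wild-type males and 9.36 and 9.38 in mutant males. Its mutants were the higher of the pair in both females and the lower in both males, and the genotype difference was 0.01 ± 0.085.

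For the receptors, Agtr1a read 11.83 and 12.18 in wild-type females, 12.17 and 12.07 in mutant females, 11.72 and 11.53 in wild-type males and 11.47 and 11.75 in mutant males. The genotypes overlapped and the difference was 0.05 ± 0.12, with the widest interval of the 8 genes (-0.24 to 0.34). Mas1 read 7.23 and 6.88 in wild-type females, 6.97 and 7.55 in mutant females, 7.99 and 7.58 in wild-type males and 7.85 and 7.88 in mutant males. Both genotypes covered nearly the same range, and the difference was 0.14 ± 0.090 (95% interval -0.08 to 0.36). A second Mas1 probe gave -0.01 ± 0.071, and the mean over the kept probes was 0.06 ± 0.074. The Mas1 values of mutant female 1 and wild-type female 2 were not well above background. Atp6ap2, which binds prorenin and is also an accessory subunit of the vacuolar proton pump, read 12.44 and 12.71 in wild-type females, 12.74 and 12.58 in mutant females, 12.08 and 12.29 in wild-type males and 12.21 and 12.12 in mutant males, a genotype difference of 0.03 ± 0.073. Over all 8 kidneys the genotypes overlapped for every one of these genes. Within males alone, both mutants lay below both wild types for Mme and above them for Enpep. The log2 ratios in these pairs were small, -0.09 and -0.13 for Mme and 0.19 and 0.03 for Enpep. How many of all items split in this way between 2 and 2 mice was not counted.

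**Figure D1:**
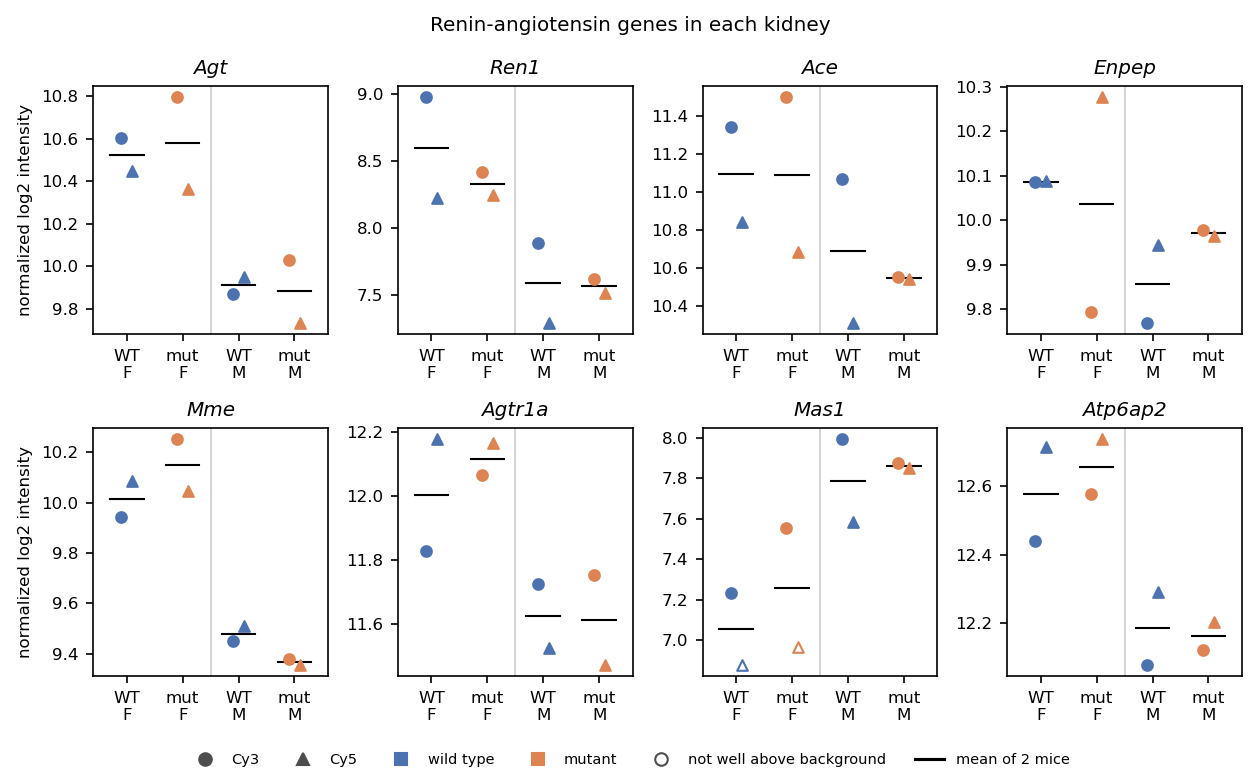
Normalized log2 intensity (vertical axis) of the 8 genes in each of 8 kidneys, by genotype and sex (WT wild type, mut mutant, F female, M male); circles are Cy3, triangles Cy5, open symbols are not well above background, and bars are means of 2 mice. Each panel has its own scale, since levels of different probes are not comparable, and over both sexes wild-type and mutant kidneys overlap in all 8 panels.

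The dye was the stronger pattern within the pairs for several of these genes. The mutant over wild-type log2 ratios of Ace were -0.66, 0.66, -0.53 and 0.24 on arrays 1 to 4, negative where the mutant was Cy5 and positive where it was Cy3. Ren1 followed the same alternation with -0.73, 0.19, -0.38 and 0.33, as did Agt and Mas1. The dye term of the same fit was -0.52 ± 0.093 for Ace and -0.41 ± 0.088 for Ren1, with adjusted p-values of 0.055 and 0.074, so neither passed, while 2.17% of all items did. With both orientations present in each sex, a constant dye effect cancels in the genotype difference but widens the scatter of levels in the plot.

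The sexes differed in 7 of the 8 genes (limma on the separate channels, adjusted p below 0.05), 6 of them lower in males and 1, the dim Mas1, higher, where 45.5% of all items were called, 27.1% lower in males and 18.4% higher. The same 7 had an unadjusted p below 0.05, against 54.2% of all items. The median male minus female difference was -0.46 over the 8 genes and -0.10 over all items. In 6 of the 8 genes the 4 mice of 1 sex all stood above the 4 of the other, as in 43% of all items. Females stood above in 5 of them (25% of all items) and males in 1 (18%). That 1 was Mas1, whose probe met the filter through the males. When all 8 channels had to be well above background, Mas1 was removed. Then 6 of 7 genes were called, all 6 lower in males, beside 47.9% of all items. The count of 7 called genes rests on few arrays: without replicate 1 it was 2 of 8 and without replicate 2 it was 1 of 8. With the correlation between channels estimated from the whole model it was 4 of 8. In these settings 14.2%, 11.5% and 17.3% of all items were called. Fewer cells of a type and less RNA per cell cannot be told apart in whole-kidney RNA.

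The probe named Ren1 read lower in males. Its mean was 8.47 ± 0.35 (SD, n = 4) in females and 7.58 ± 0.25 in males, 1.85-fold lower in males (log2 difference -0.89 ± 0.13 SE, adjusted p = 0.0029). This probe was also dim, at 7.29 to 7.89 in males, where Mas1 read 7.58 to 7.99, although it was well above background in all 8 channels. A far brighter probe named Ren2, at 12.40 to 14.00, is described below, and which renin transcript each probe reads was not tested. The size of the Ren1 difference depended on the processing. It was -1.02 with an offset of 16, -1.31 with the processed signals and -1.305 with the deposited table, and was called in each. Every female stood above every male, the lowest female at 8.22 and the highest male at 7.89. Agt averaged 10.55 ± 0.19 in females and 9.90 ± 0.13 in males, 1.57-fold lower in males (adjusted p = 0.0041) with no overlap of the sexes.

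Among the peptidases, Mme averaged 10.08 ± 0.13 in females and 9.42 ± 0.069 in males, a log2 difference of -0.66 ± 0.089 (adjusted p = 0.0022). A second Mme probe, not used above, gave -1.01 ± 0.097 (adjusted p = 0.00062 when every probe was tested as its own item), so both probes were lower in males with no overlap and differed in size. Ace averaged 11.09 ± 0.39 in females and 10.62 ± 0.32 in males, a difference of -0.47 ± 0.15 (adjusted p = 0.039). Ace passed the test although the sexes overlapped: wild-type male 3, at 11.07, lay above wild-type female 2 and mutant female 1. Its call was lost, among other settings, when the program's processed signals, the deposited value table or array means were used. Enpep did not pass, with means of 10.06 ± 0.20 in females and 9.91 ± 0.097 in males, a difference of -0.15 ± 0.11 (95% interval -0.41 to 0.11, adjusted p = 0.31), and mutant female 2 lay below 3 of the 4 males.

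Of the receptors, Agtr1a averaged 12.06 ± 0.16 in females and 11.62 ± 0.14 in males, a difference of -0.44 ± 0.13 (adjusted p = 0.037), and the lowest female, at 11.83, was just above the highest male, at 11.75. Like that of Ace, its call was lost with the processed signals and with the deposited table. Mas1 was dim: its probe was well above background in all 4 males and in 2 of 4 females, and a second probe in all 4 males and 1 female, so both probes met the filter through the males, where they read higher. The 4 males read 7.58 to 7.99 and the 4 females 6.88 to 7.55, of which mutant female 1 and wild-type female 2 were not well above background. The fitted difference of 0.67 (adjusted p = 0.0046) therefore has no settled size: it was 1.22 with the processed signals, which carry no added offset, and the gene was removed when all 8 channels had to be well above background.

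Atp6ap2, encoded on chromosome X, averaged 12.62 ± 0.14 in females and 12.18 ± 0.094 in males, 1.36-fold lower in males (log2 difference -0.44 ± 0.078, adjusted p = 0.0056), and the sexes did not overlap. The other genes lie on autosomes, Ren1 on chromosome 1, Enpep and Mme on chromosome 3, Agt on chromosome 8, Ace on chromosome 11, Agtr1a on chromosome 13 and Mas1 on chromosome 17.

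**Figure D2:**
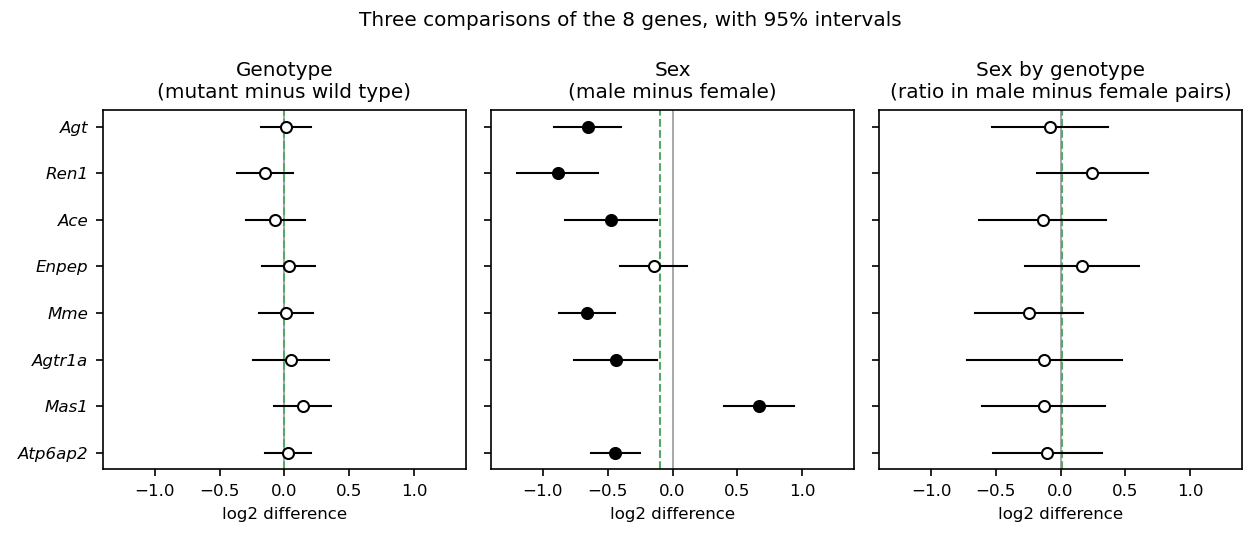
Log2 differences (horizontal axis) of the 8 genes for genotype, sex, and the difference in genotype ratio between male and female pairs, with 95% intervals from limma; filled points had an adjusted p below 0.05 and the dashed line is the median of all 22122 items. The genotype and sex-by-genotype estimates have no filled point, while 7 of 8 sex differences are filled, Mas1 to the right and 6 genes to the left.

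Some cell markers differed between the sexes as well, where 45.5% of all items were called, 27.1% lower in males and 18.4% higher. The mean log2 level of 8 endothelial markers was 10.91 to 11.08 in females and 10.52 to 10.76 in males, with 5 of 8 called lower in males, and that of 6 podocyte markers was 9.98 to 10.30 in females and 9.21 to 9.96 in males, with 3 of 6 called lower. The 10 markers of the convoluted proximal tubule (segments S1 and S2) averaged 14.85 to 15.26 in females and 14.63 to 14.93 in males, with 4 called lower in males and 1 higher. Of 9 markers of smooth muscle, pericytes and mesangium, among whose cells renin cells arise, 5 were called lower and 1 higher in males, with means of 10.08 to 10.43 in females and 9.91 to 10.29 in males. The 7 measured markers of the straight proximal tubule (segment S3) went the other way in their mean only, 12.91 to 13.18 in females and 14.15 to 14.41 in males. Of these markers 3 were called higher and 3 lower in males, and their median male minus female log2 difference was -0.12. The largest differences were those of Slc7a13 and Cyp7b1, both higher in males, and of Slc7a12, lower in males. The higher mean was therefore not shared by most of these markers. Of 7 collecting duct markers 2 were called, both lower in males, with means of 11.94 to 12.19 in females and 11.69 to 12.13 in males. Of 5 measured markers of thick ascending limb and macula densa, 2 were called lower and 1 higher in males. Their means also overlapped, 13.44 to 13.98 in females and 13.49 to 13.90 in males. The part of the marker differences in the results for the 8 genes was not tested.

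Taken separately by genotype, 5 of 8 genes were called for sex in wild-type mice and 5 of 8 in mutants, where 31.1% and 29.8% of all items were called. In both genotypes the called genes were Ren1, Agt, Mme, Atp6ap2 and Mas1, and Ace, Agtr1a and Enpep were not. The male minus female log2 difference of Ren1 was -1.01 ± 0.17 (SE) in wild type and -0.76 ± 0.17 in mutants, and that of Mme was -0.54 ± 0.12 and -0.78 ± 0.12. No difference between the genotypes in these sex effects passed the test of that difference, which called 0 of 8 genes and 0.14% of all items, and 0 of 8 also had an unadjusted p below 0.05, against 3.82% of all. The estimates, the genotype ratio in male pairs minus that in female pairs, ran from -0.24 ± 0.17 for Mme to 0.24 ± 0.18 for Ren1, and with 2 pairs per sex the 95% interval for Ren1 ran from -0.18 to 0.67.

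A probe named Ren2 read renin transcripts too. Ren2 is a near-identical duplicate of Ren1 that some mouse strains carry and that C57BL/6 mice are known to lack, and whether either probe tells the transcripts apart was not tested, so both values are uncertain as to gene. The Ren2 probe read 14.00 and 13.54 in wild-type females, 12.97 and 12.99 in mutant females, 13.03 and 12.40 in wild-type males and 12.60 and 12.74 in mutant males. Both wild-type females stood above the other 6 kidneys, whereas in males the mutants lay between the wild types. The share of all items that split in this way was not counted.

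The Ren2 probe was lower in males, with a log2 difference of -0.69 ± 0.12 (SE, limma, adjusted p = 0.0058). This was -1.06 ± 0.16 in wild type (adjusted p = 0.0062) and -0.31 ± 0.16 in mutants (adjusted p = 0.18, not called). Its mutant over wild-type ratios were -1.03, -0.55, -0.43 and 0.34 on arrays 1 to 4, a mean difference of -0.42 ± 0.17 with an adjusted p of 0.98 and an unadjusted p of 0.050. The difference between male and female pairs was 0.74 ± 0.18 with an adjusted p of 0.57, not called, and an unadjusted p of 0.0052. The Ren1 and Ren2 probes gave close ratios in both male pairs but opposite signs in female pair 2, at 0.19 and -0.55. Fat markers had median ratios of -1.61 and -1.92 in the female pairs and 1.93 and 0.53 in the male pairs, and 6 of 9 were called for the difference between pairs of each sex. Their part in the Ren2 values was not tested.

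**Figure D3:**
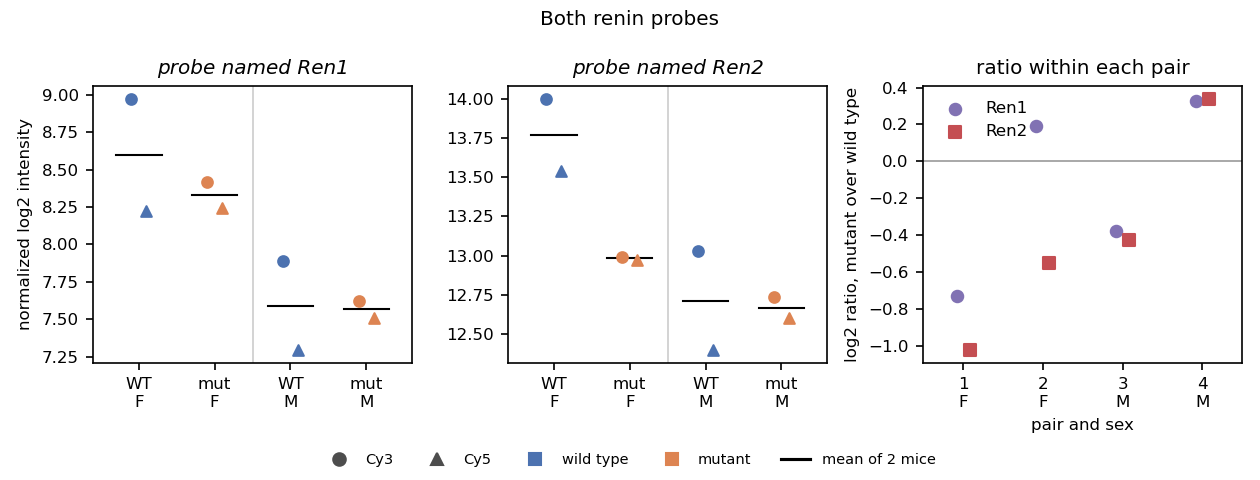
Normalized log2 intensity of the probes named Ren1 and Ren2 in each kidney (WT wild type, mut mutant, F female, M male; bars are means of 2 mice), and the mutant over wild-type log2 ratio within each of 4 pairs. In the Ren2 probe the 2 wild-type females (13.54 and above) lie above the 2 mutant females (12.99 and below), and in the Ren1 probe they overlap. The Ren2 probe was not called for genotype or for sex by genotype (limma, adjusted p = 0.98 and 0.57). How many of all items split in this way was not counted.

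Genes around the pathway were counted in 5 lists. For genotype, 0 measured members passed in any list: 0 of 21 other angiotensin and kinin peptidases, 0 of 12 receptors and partners, 0 of 21 proton pump subunits, 0 of 24 genes of renin cells and renin control, and 0 of 21 genes of the aldosterone response. Unadjusted p-values below 0.05 numbered 2, 0, 0, 1 and 1 in these lists, against 4.46% of all items. Of all items 0.0271% were called. Among the peptidases, the endothelin-converting enzyme Ece1 was at -0.26 ± 0.072 and negative in 4 of 4 pairs, with an adjusted p of 0.98. In the aldosterone response the largest estimates were those of Wnk1, a kinase that controls salt transporters, at 0.31 ± 0.11 and positive in 4 of 4 pairs, and Tsc22d3, a steroid-induced gene, at -0.23 ± 0.28. As the mean over its kept probes Wnk1 was at 0.18 ± 0.093. In the remaining lists the largest estimates were the receptor-associated protein Agtrap at 0.15 ± 0.093, the signalling regulators Rgs2 at -0.17 ± 0.18 and Rgs5 at 0.27 ± 0.11, also positive in 4 of 4 pairs, and the pump subunits Atp6v1c1 at 0.17 ± 0.11 and Atp6v1h at 0.17 ± 0.077, with Ren2 as given above. The share of all items with the same sign in 4 of 4 pairs was not counted.

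For sex, the proton pump, of which Atp6ap2 is an accessory subunit, had 12 of 21 subunits called, all 12 lower in males, and a median of -0.28 against -0.10 for all items. Those with the smallest adjusted p were Atp6v1h at -0.59 ± 0.087, a subunit of the cytosolic sector, and Atp6v0e2 at -0.44 ± 0.080 and Atp6v0e at -0.37 ± 0.082, subunits of the membrane sector. The proton pump share was 57.1%, beside 45.5% of all items. Of the other lists, 7 of 21 genes of the aldosterone response (33.3%), 5 of 21 peptidases (23.8%), 4 of 12 receptors and partners (33.3%) and 9 of 24 genes of renin cells and renin control (37.5%) were called. These shares were not compared by a test. The proton pump count rests on single arrays and on the correlation used: it was 0 without replicate 1, 1 without replicate 2, 8 without replicate 3, 6 without replicate 4 and 1 with the correlation of the whole model. The share of all items called fell in these settings too, to 14.2%, 11.5%, 38.6%, 38.7% and 17.3% in the same order. In the same settings the aldosterone response had 1 to 7 genes called, the peptidases 0 to 5, the receptors and partners 0 to 4 and the renin list 2 to 11.

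In the aldosterone response 6 genes were lower in males and 1 higher. The higher one was Kcnj1, a potassium channel of the distal nephron, at 0.85 ± 0.10 (adjusted p = 0.0015). Hsd11b2, which protects the mineralocorticoid receptor from glucocorticoids, was at -0.53 ± 0.14 and the salt cotransporter Slc12a3 at -0.29 ± 0.081. Among the peptidases 4 were lower and 1 higher, and the leading members were Klk1, a kinin-releasing kallikrein of a family of close copies, at -0.53 ± 0.076, the aminopeptidase Erap1 at -0.56 ± 0.081 and the dipeptidyl peptidase Dpp4 at -0.48 ± 0.090. All 4 called receptors and partners were lower in males, led by the kininogen genes Kng2 at -0.48 ± 0.088 and Kng1 at -0.37 ± 0.090, which are close copies that the probes may not separate, and by Gna11, a G protein subunit through which the angiotensin receptor signals, at -0.46 ± 0.086. In the renin list 6 were lower and 3 higher: the coactivator Crebbp was higher at 0.97 ± 0.081 (adjusted p = 0.00039), with the lowest male at 14.32 and the highest female at 13.55, and the endothelin receptor Ednra was lower at -0.74 ± 0.095 (adjusted p = 0.0018), beside Ren2. With the correlation of the whole model the calls of Hsd11b2 (adjusted p = 0.24), Slc12a3 (0.17), Kng1 (0.15), Dpp4 (0.085), Atp6v0e (0.067), Gna11 (0.054) and Atp6v0e2 (0.052) were lost.

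**Figure D4:**
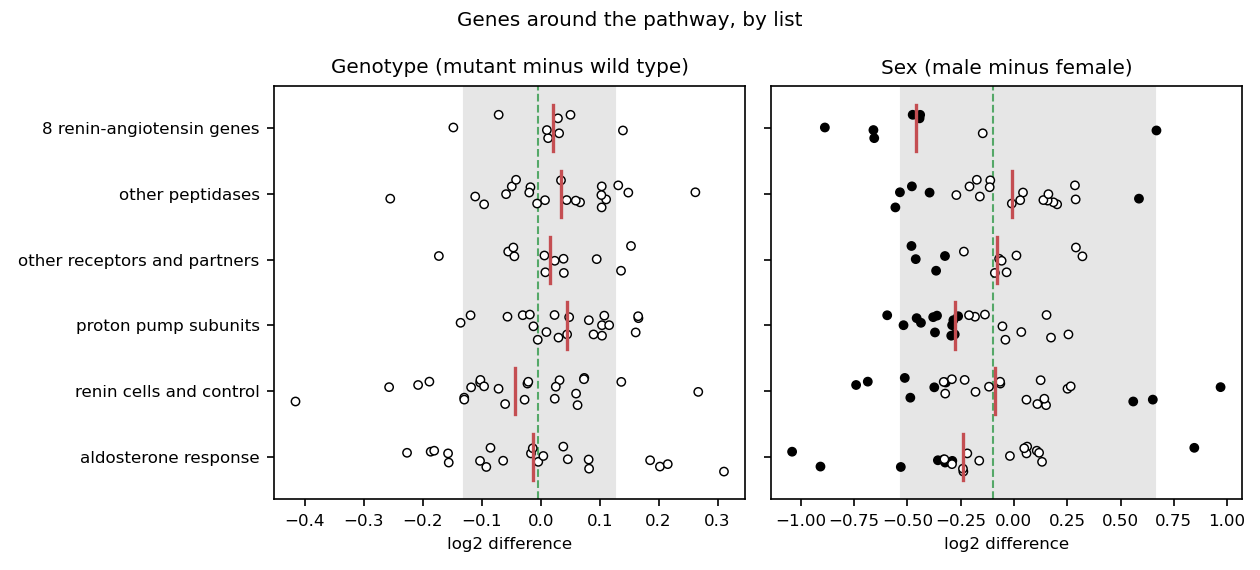
Log2 differences (horizontal axis) of the 8 genes and of the measured members of 5 lists, for genotype on the left and sex on the right; filled points had an adjusted p below 0.05, red bars are list medians, and the dashed line and grey band are the median and the span from percentile 10 to percentile 90 of all items. Genotype has no filled point, and for sex all 12 filled proton pump subunits lie to the left of 0.

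The difference between male and female pairs in the genotype ratio called 0 measured members in each list, beside 0.14% of all items. Unadjusted p-values below 0.05 were found for 0 of 21 peptidases, 1 of 12 receptors and partners and 1 of 21 pump subunits. They were also found for 5 of 24 genes of renin cells and control and 2 of 21 of the aldosterone response, against 3.82% of all items. These counts were not compared by a test. The 2 largest estimates were those of Adora1, an adenosine receptor through which the macula densa restrains renin, at 1.38 ± 0.24 (adjusted p = 0.21), and Sgk1, an aldosterone-induced kinase, at 1.13 ± 0.18 (adjusted p = 0.17). Adora1 ratios were -0.63 and -0.87 in female pairs and 1.17 and 0.09 in male pairs, and those of Sgk1 were -0.57, -0.92, 0.45 and 0.32, the same signs as the fat markers in all 4 pairs, whose part in these values was not tested. Both passed with median normalization (adjusted p = 0.00015 and 0.0053), a setting that called 223 items in place of 31. Neither passed with an offset of 16 (adjusted p = 0.57 and 0.48) or with the processed signals (0.9995 for both). The others among the 2 largest estimates of each list, beside Ren2, were Per1 at 0.90 ± 0.44, Rgs2 at 0.81 ± 0.17, Cltrn at -0.44 ± 0.19, Atp6v1b2 at -0.43 ± 0.17, Klk1 at -0.42 ± 0.18, Kng2 at -0.27 ± 0.18 and Atp6v0a4 at -0.23 ± 0.23. Leaving out 1 replicate turned the sign of Per1 (-0.16 to 1.95) and of Atp6v0a4 (-0.62 to 0.15).

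The genes whose levels ran most like each member over the 8 kidneys, after removing the mean of each dye, were found among 14283 other named genes. For Ren1 they were Aplp1 (Pearson r = 0.996), Tctn1 and 2410004B18Rik, and for Agt they were Tmem165 (r = 0.998), Zdhhc13 and Ntf5. For Mme they were Cdh6 (r = 0.998), Pdgfb and Hoxd9, and for Atp6ap2 they were Golim4 (r = 0.998), Mrps30 and Lyplal1. For Ace they were Eral1 (r = 0.987), Cdc45 and Nudt3, and for Enpep they were Nin (r = 0.987), Xdh and Grk4. For Agtr1a they were Taf9 (r = 0.990), Rb1cc1 and Ttc39b, and for Mas1 they were Rrn3 (r = 0.991), Crtap and Prkdc. The 8 samples share a slide and fall into sexes, each name is the highest of many correlations over few samples, and the values are a description.

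**Figure D5:**
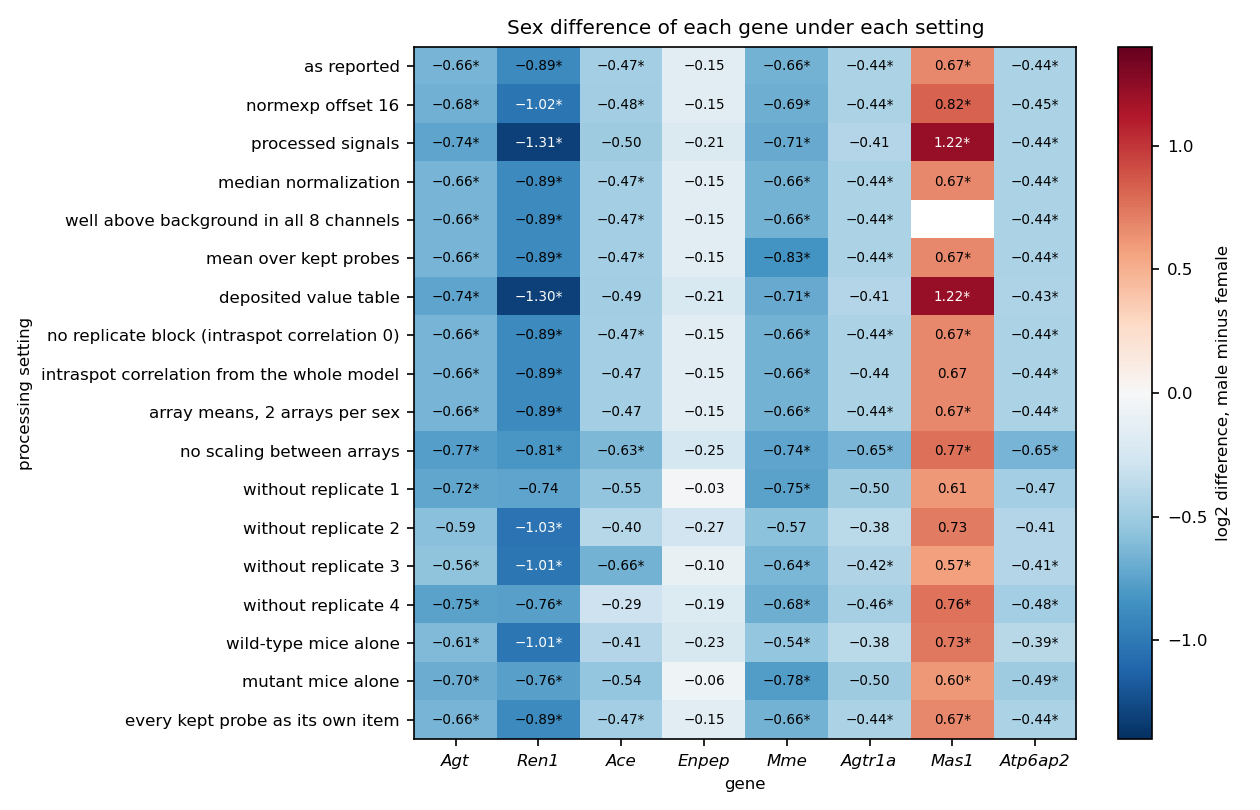
Male minus female log2 difference (colour and printed value) of each of the 8 genes under each processing setting; an asterisk marks an adjusted p below 0.05 and a blank cell a probe removed by the filter. The direction of each gene is the same in all settings, while asterisks thin out without replicate 1 or 2 and with the correlation of the whole model.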

How the data were processed

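The deposited intensities are median pixel brightness per spot and local background and, per the file headers, were extracted with version 10.7.3.1 of Agilent Feature Extraction. The deposited value table holds log2 values centred on each probe's median over the 8 samples, as found from its values, with further scaling unknown. Mean spot signals had been planned, and medians were used because the scanner files carry these. Signals were corrected with normexp (offset 50) and normalized by loess in limma 3.58.1 (R 4.3.3), and channels were scaled between arrays by Aquantile. Promoter windows were read with Python 3.

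Genotype was tested on within-array log2 ratios with a dye term, the sex-by-genotype difference with a term for each sex, and sex on separate channels with an intraspot correlation of 0.157. That correlation was estimated without the sex-by-genotype term, although the fit for sex held this term. Estimated from the whole model, it was 0.779. P-values were adjusted over 22122 items (Benjamini-Hochberg, threshold 0.05), and the fits were tested on simulated data. Of 55681 probes, those well above background in at least 4 of 8 channels were kept, and the brightest per gene was used. The members and lists were chosen with earlier results of these data known. In each list and comparison up to 3 genes with the smallest adjusted p were named, or, where none passed, the 2 largest differences. A gene named by this rule is not reported here. Pairing comes from the shared array: deviations of same-numbered mice from their group means correlated at 0.68 to 0.78, and each pair is of 1 sex, which raises this. The number of arrays limits the precision.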

Additional observations from a re-analysis of the deposited data

Results flagged for a closer look

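Among the mutants, Ace in mutant female 2 stood apart. It read 11.50 against 10.54 to 10.68 in the other mutant kidneys, a gap of 0.851 of the range of the 4 mutants, above Dixon's 95% critical value for 4 samples. The 4 mutants were of both sexes, and Ace was lower in males (log2 difference -0.47), which this limit does not allow for. Of 18 gene and genotype groups checked 1 was past its limit, and chance marks about 1 in 20 groups. The sample was 1 of the 2 mutant channels labelled with Cy3, and Ace was higher in the Cy3 channel on all 4 arrays. The part of the dye was not tested beyond the dye term given above.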

How the results depend on the processing

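The direction of the sex difference of the 8 genes was the same under every alternative run, and of their alternative values 111 kept and 24 lost their side of the threshold. Counts over all items moved more: for sex, 10065 items became 3836 with the intraspot correlation of the whole model, 6587 in mutant mice alone (added after seeing the data) and 2543 to 8552 when 1 replicate was left out, with the 4-array correlation kept. For genotype, 6 items became 0 with the processed signals, 0 with the deposited table, 10 with median normalization and 1 to 3 when 1 replicate was left out. For the sex-by-genotype difference, 31 items became 0 with an offset of 16, 0 with the processed signals, 0 with the deposited table, 223 with median normalization and 54 with every probe as its own item (also added later). Leaving out a replicate leaves that difference without a test, and its sign turned for Ace (-0.415 to 0.136), Agt (-0.266 to 0.104), Agtr1a (-0.591 to 0.341), Mas1 (-0.382 to 0.122), Per1 (-0.156 to 1.95) and Atp6v0a4 (-0.622 to 0.154). Without the replicate block, which the shared arrays give, this count was 0, the genotype count 5 and the sex count 10675, and no call of the 8 genes changed. Genotype differences near 0 changed sign with median normalization (Agt -0.015, Mme -0.014, Atp6ap2 -0.0066) and when 1 replicate was left out: Ace -0.175 to 0.032, Agt -0.054 to 0.079, Agtr1a -0.097 to 0.198, Enpep -0.050 to 0.113, Mme -0.063 to 0.084, Atp6ap2 -0.013 to 0.072, Tsc22d3 -0.694 to 0.240 and Rgs2 -0.378 to 0.032. The cause was not tested. Intensities near background limit Mas1.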
